A study of Mus musculus with 12 samples.

Results

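Collagens are the extracellular matrix proteins whose gene symbols have the form Col, a type number, a and a chain number. Of 41174 non-control probes on the arrays, 70 probes carried a transcript accession that belonged to 1 of 42 collagen genes, and these 70 probes are described here. The rule that chose them uses the gene symbol alone and no measured value, but it was set with earlier results of these data known. The reference table of gene symbols held 44 collagen genes, and for Col6a3 and Col12a1 no probe was matched. A symbol was found for 26690 probes (64.8%), so probes without a symbol could not be assigned. Of the 70 probes, 42 were well above background on all 12 arrays, 50 on all arrays of 1 or more groups, and 16 were so nowhere.

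Every collagen is built of chains with long repeats of glycine, proline and hydroxyproline, and 3 chains wind into a triple helix inside the endoplasmic reticulum. Proline and lysine residues are hydroxylated on the growing chain, chaperones hold the helix, and large carriers export it, so collagen mRNAs are translated on membrane-bound ribosomes. Fibrillar collagens (types I, III and V) form the stromal fibrils that fibroblasts secrete, whereas type IV collagen forms the sheet of the basement membrane that surrounds each adipocyte. Preadipocytes are known to exchange a fibrillar for a basement membrane matrix as they become adipocytes.

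3T3-L1 is a mouse embryonic fibroblast line that can be turned into adipocytes in culture. Confluent cells in medium with 10% newborn bovine serum were lysed before induction (0 h) or 6 h after a change to 10% fetal bovine serum with 0.5 mM isobutylmethylxanthine (IBMX), 1 µM dexamethasone and 5 µg/ml insulin, so that serum and hormones changed together. The lysates contained cycloheximide and were run on sucrose gradients, where mRNAs that carry several ribosomes sediment further. Fractions 5 to 7 were pooled as non-polysomal and fractions 9 to 11 as polysomal RNA, and each of the 4 groups was measured in 3 biological replicates on 12 one-color arrays. All 4 groups come from 1 cell line, and each slide held 1 replicate of every group.

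The values are log2 signals of single arrays, scaled by spike-in RNAs that were added to each sample. The symbols np0, p0, np6 and p6 stand for the non-polysomal and polysomal group means at 0 h and 6 h, and M is (p6 - np6) - (p0 - np0), the change over time in the polysomal fraction beyond that in the non-polysomal fraction. A probe was called when its p from limma, adjusted over all probes by the method of Benjamini and Hochberg, was below 0.05. The median over all probes was 0.15 for p0 - np0, 0.68 for p6 - np6, 0.54 for p6 - p0, 0.036 for np6 - np0 and 0.49 for M. The spike-in offset of the 6 h polysomal arrays was -0.35 ± 0.14 (SD, n = 3), against 0.095 ± 0.068 (np0), 0.135 ± 0.021 (p0) and 0.12 ± 0.039 (np6). Every contrast that includes p6 therefore depends on the scaling. So does p0 - np0, whose median over all probes was -0.74 after scaling to the 75th percentile of each array. All 7 fibroblast markers were well above background in at least 1 group, against 1 of 3 macrophage, 1 of 3 endothelial, 1 of 4 epithelial, 4 of 7 adipocyte, 2 of 3 chondrocyte and 2 of 3 myogenic markers. The myogenic markers Myod1 and Des and the chondrocyte markers Sox9 and Acan were so on all 12 arrays. The same held for the adipocyte markers Adipoq, Fabp4, Plin1 and Cidec, the macrophage marker Csf1r and the epithelial marker Krt8. The part of these markers in the results was not tested. Since whole cultures were lysed, fewer cells of a type and less RNA per cell cannot be told apart.

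The genes of both main type IV chains, Col4a1 and Col4a2, lie head to head in the RefSeq annotation of the mouse assembly GRCm38.p6. The annotated start of Col4a2 (forward strand, chr8:11312805) lies 22 bases inside the reverse-strand transcript of Col4a1, which starts at chr8:11312826. The stretch around both starts is shown because these genes had the lowest M among the collagens. It is given for the forward strand, chr8:11312801-11312830, and capitals mark the 22 bases that both annotated transcripts hold.
Col4a1/Col4a2: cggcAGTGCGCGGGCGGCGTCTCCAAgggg
The starts of a second type IV pair, Col4a6 and Col4a5 on chromosome X, were 1343 bases apart.

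RefSeq promoter windows, from 250 bases before to 50 bases after an annotated start, were found for 35 collagen genes (38 windows). The GC box GGGCGG stood on either strand in 23 of 38 windows (60.5%), against 35.7% of 32851 windows of all genes. CCAAT stood in 13 (34.2% against 37.4%), among them those of Col1a2, Col4a1, Col4a2 and Col18a1. TATAAA stood in 5 (13.2% against 13.6%), among them that of Col3a1. mRNAs with a terminal oligopyrimidine tract start with C and a run of C or T, and are translated according to growth signals. An annotated start with C and at least 4 further C or T was found in 4 of 38 collagen windows (10.5%) and in 2.51% of all windows. These 4 belonged to Col27a1, Col4a6, Col6a1 and Col9a1. The 15 bases before (lower case) and from the start (capitals) are shown for 6 of the chains described below, taken from the fibrillar, beaded filament and hexagonal network classes, in the direction of transcription.
Col1a2, forward strand, chr6:4505603-4505632: agccctagccctcccATTGGTGGAGACGTT
Col3a1, forward strand, chr1:45311523-45311552: cttttactgctgaggGGATGGGTTCTGCTC
Col5a1, forward strand, chr2:27886410-27886439: ggagggaaaggggggAAAAGTGCTCAGCGC
Col6a1, reverse strand, chr10:76726030-76726059: ccctccctccctccaCCCTCCCTGGCTCTC
Col27a1, forward strand, chr4:63215397-63215426: ttcccccaaatccttCCTTTTCCTCTCCTC
Col8a1, reverse strand, chr16:57754723-57754752: ctgtccataaaagccAAGTGCAAGTTACCC
Of these 6 starts, those of Col6a1 and Col27a1 begin with a pyrimidine run, of 8 and 19 bases.

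In resting cells, most collagen mRNAs with a clear signal read higher in the polysomal than in the non-polysomal fraction. The spike-in amount was set for a fixed amount of RNA, so this does not show which pool held most copies of an mRNA. At 0 h, 39 of the 70 collagen probes were higher and 6 lower in the polysomal than in the non-polysomal fraction, against 37.1% higher and 14.9% lower over all probes. The median of p0 - np0 was 1.23 for the collagen probes. Among the 10 collagen probes with a mean log2 signal above 12 it was 2.67, against 0.61 for all probes as bright, and among the 15 between 8 and 12 it was 2.40, against 1.15. Relative to all probes, the collagen median stayed positive under every alternative, from 0.23 to 1.39. After scaling to the 75th percentile of each array the counts were 33 higher and 17 lower.

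The type I chains are the main fibrillar product of fibroblasts. The leading probe of Col1a1, which is the brightest of its probes, read 14.05, 14.04 and 13.95 on the 0 h non-polysomal arrays and 16.68, 16.77 and 16.83 on the 0 h polysomal arrays. The groups did not overlap, and the polysomal mean was 6.70-fold higher (2.74 ± 0.069 on the log2 scale, fitted difference ± SE, adjusted p = 1.4e-09). Its partner Col1a2 read 15.73, 15.89 and 15.66 against 18.32, 18.37 and 18.27, a 5.90-fold difference (2.56 ± 0.075, adjusted p = 1.8e-09). For this probe too, every polysomal array lay above every non-polysomal array. Col3a1, the chain of type III fibrils, was 6.33-fold higher in the polysomal fraction (2.66 ± 0.092). The type V chains, which set the diameter of type I fibrils, were higher as well, with 2.03 ± 0.089 for Col5a1, 3.38 ± 0.098 for Col5a2 and 2.40 ± 0.11 for Col5a3.

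The same held for the beaded filament chains of type VI, which link fibrils to cells, with a fitted p0 - np0 of 2.87 ± 0.073 for Col6a1 and 2.82 ± 0.079 for Col6a2. In the basement membrane group, p0 - np0 was 1.79 ± 0.085 for Col4a1 and 3.02 ± 0.082 for Col4a2. For Col18a1, a basement membrane collagen with heparan sulfate chains whose cleaved end is endostatin, it was 2.94 ± 0.079. Col8a1, a short chain that forms hexagonal lattices, reached 3.06 ± 0.096, and Col16a1, which sits on the surface of fibrils, reached 3.23 ± 0.088. The transmembrane collagens Col23a1 and Col17a1 were at 2.99 ± 0.15 and 2.29 ± 0.11. All of these differences were called, and all but that of Col16a1, for which no alternative was run, stayed called under every alternative.

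Of the 42 leading probes, 4 were called lower in the polysomal than in the non-polysomal fraction at 0 h, against 14.9% of all probes. These were Col4a4 (-1.33 ± 0.099), Col4a6 (-2.61 ± 0.30), Col11a2 (-0.79 ± 0.11) and Col20a1 (-0.68 ± 0.087), all with an adjusted p below 0.05. Col4a4, a chain of the specialised basement membranes of kidney and ear, read 10.64, 10.73 and 10.74 in the non-polysomal and 9.54, 9.41 and 9.17 in the polysomal fraction. For Col4a6 the sign depended on the probe, since its 2 dimmer probes were higher in the polysomal fraction (0.77 and 0.95, both called).

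**Figure D1:**
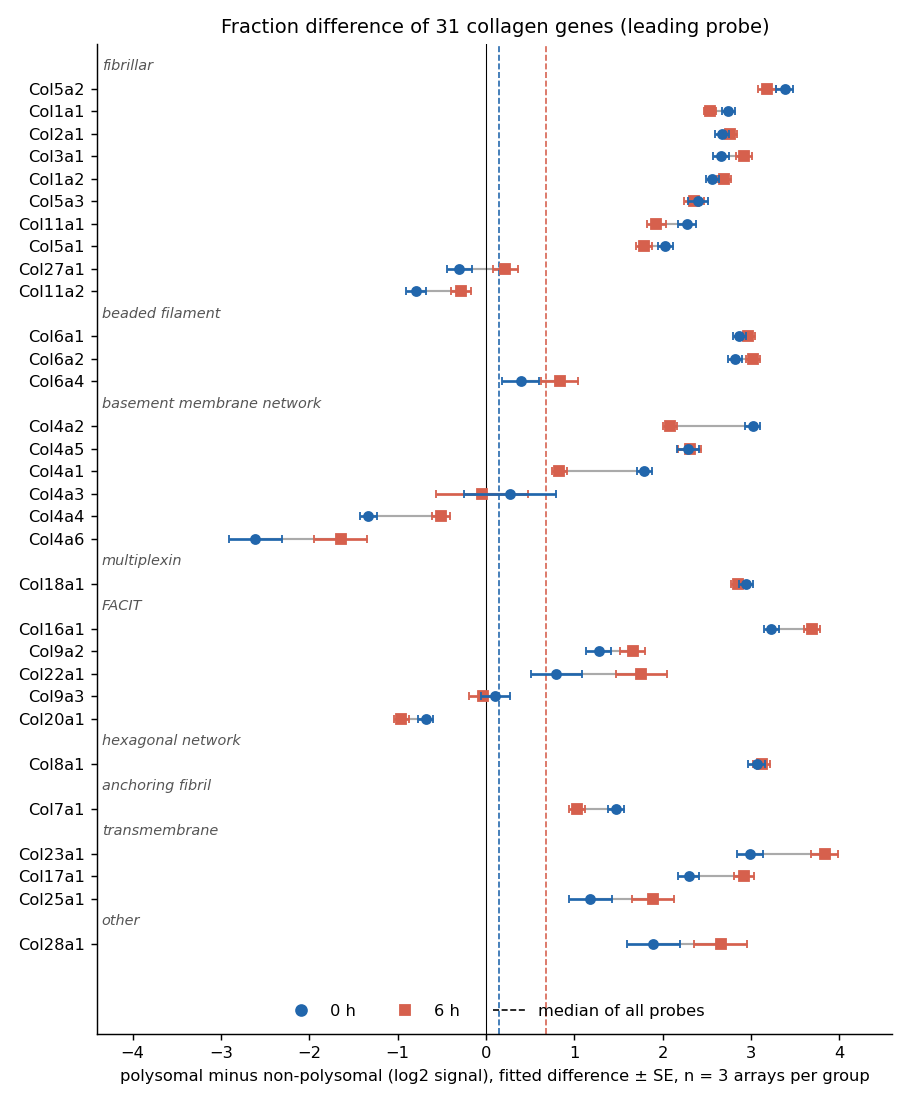
Polysomal minus non-polysomal log2 signal (fitted difference, bars ± SE, n = 3 arrays per group) at 0 h (circles) and 6 h (squares) for the leading probe of the 31 collagen genes whose leading probe exceeded background on all 3 arrays of some group, by structural class. Most circles lie right of the dashed median of all probes (0.15 at 0 h), and Col4a1 and Col4a2 moved left by 0.96 and 0.94 from 0 h to 6 h.

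At 6 h, 46 collagen probes were higher and 4 lower in the polysomal fraction, against 60.0% and 9.96% of all probes. The median of p6 - np6 was 1.48, above that of all probes by 0.80. After scaling to the 75th percentile the counts were 27 higher and 21 lower, after quantile normalization 35 and 12, and after a straight line through the spike-ins 61 and 2. The type I chains remained higher in the polysomal fraction, with 2.53 ± 0.069 for Col1a1 and 2.69 ± 0.075 for Col1a2, and so did Col3a1 with 2.92 ± 0.092. Their differences stayed above 0 with every scaling that was tried. For Col4a1 the difference was down to 0.83 ± 0.085, and it was -0.48 with the 75th percentile and -0.28 with quantile normalization. Col7a1, the chain of anchoring fibrils, behaved alike, with 1.03 ± 0.087 in the spike-in scaling and -0.28 and -0.33 in those 2 settings.

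The shift between fractions over time was on both sides of 0 for the collagens. By M, 9 collagen probes were called higher and 9 lower, against 32.1% higher and 3.98% lower over all probes. The median M was 0.12, which is 0.37 below the median of all probes, and 49 of the 70 probes lay below that median. The collagen median relative to all probes stayed below 0 under every alternative, from -0.49 to -0.08. The counts themselves depended on the scaling, with 3 higher and 24 lower after scaling to the 75th percentile, 4 and 29 after quantile normalization, 38 and 5 with a line through the spike-ins, 33 and 12 with the authors' log2 values, and 41 and 12 after normexp background correction. Without replicate 1, 2 or 3 of all groups, 5, 4 and 2 probes were called higher and 6, 5 and 6 lower. Within the arrays of each slide the collagen median of M was 0.33, 0.16 and 0.10, against 0.41, 0.64 and 0.43 for all probes.

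Col4a1 and Col4a2 had the lowest M among the collagens. Col4a1 read 10.97, 11.05 and 10.98 on the np0 arrays and 13.91, 13.86 and 13.76 on the np6 arrays. On the polysomal arrays it read 12.63, 12.88 and 12.85 before and 14.72, 14.60 and 14.70 after induction. Neither fraction showed any overlap between the times, and the rise was 7.20-fold in the non-polysomal and 3.70-fold in the polysomal fraction. M was -0.96 ± 0.12 (adjusted p = 0.00022), and it was -0.85, -1.10 and -0.94 within the 3 slides.

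Col4a2 encodes the partner chain, which joins pairs of the Col4a1 chain in the same trimer. It read 10.47, 10.59 and 10.46 against 12.97, 12.86 and 12.92 in the non-polysomal fraction and 13.37, 13.62 and 13.58 against 15.01, 14.96 and 15.02 in the polysomal fraction. The rise was 5.32-fold and 2.78-fold, again with no overlap between the times. M was -0.94 ± 0.12 (adjusted p = 0.00021), and -0.86, -0.94 and -1.02 within the slides. The second probe of either gene gave nearly the same M, -0.96 ± 0.12 for Col4a1 and -0.94 ± 0.14 for Col4a2. For both genes M kept its sign and its call in all 24 alternatives, between -1.40 and -0.84 for Col4a1 and between -1.55 and -0.83 for Col4a2. The Col4a5 chain of the same family was at 0.018 ± 0.18, and the leading probe of Col4a3 was well above background on 8 of 12 arrays only. For Col4a6 the probes disagreed, with an M of 0.97 ± 0.43 for the leading probe and of -0.93 ± 0.39 (adjusted p = 0.086) and -0.63 ± 0.29 for the others, none called. Its second brightest probe was at -0.86, -0.99 and -0.95 within the slides, near the values of Col4a1 and Col4a2.

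**Figure D2:**
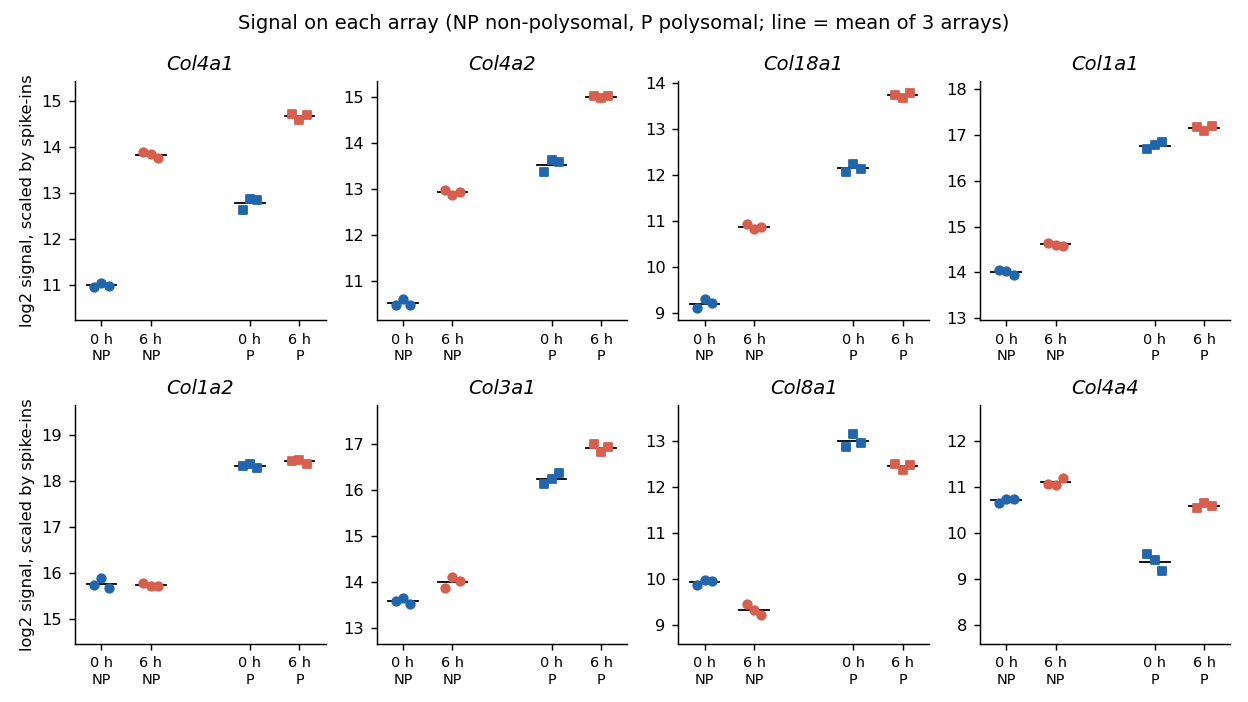
Log2 signal scaled by the spike-ins (vertical axes, each 1 panel per gene) on every array for the leading probes of 8 collagen genes, non-polysomal (NP, circles) and polysomal (P, squares), 0 h in blue and 6 h in red, with lines at the mean of 3 arrays. Col4a1, Col4a2 and Col18a1 were higher at 6 h in both fractions, Col8a1 was lower in both, and the Col4a1 step was 2.85 in the non-polysomal and 1.89 in the polysomal fraction.

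Col18a1 rose in both fractions, and its M depended on the scaling. Its non-polysomal values were 9.10, 9.28 and 9.20 at 0 h and 10.93, 10.82 and 10.86 at 6 h, a 3.19-fold rise (adjusted p = 1.1e-07). Its polysomal values were 12.05, 12.24 and 12.12 at 0 h and 13.74, 13.66 and 13.77 at 6 h, a 3.00-fold rise (adjusted p = 7.9e-08). M was -0.090 ± 0.11, with a 95% interval from -0.34 to 0.16 in the spike-in scaling. After scaling to the 75th percentile it was -0.51 (adjusted p = 0.00047) and after quantile normalization -0.80 (adjusted p = 1.9e-05), both called. The second Col18a1 probe had a similar rise in both fractions (1.82 and 1.34) but an M of -0.49 ± 0.099 that was called. The other multiplexin, Col15a1, was not well above background on any array.

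The transmembrane collagens Col23a1 and Col17a1, together with Col4a4, had the highest called M among the genes that the naming rule covers. Col23a1 read 7.35, 7.53 and 7.28 in the polysomal fraction at 0 h and 8.33, 8.24 and 8.34 at 6 h. Its non-polysomal values overlapped between the times, at 4.35, 4.67 and 4.17 against 4.74, 4.37 and 4.30. M was 0.85 ± 0.21 (adjusted p = 0.011), whereas a dimmer probe that was also above background on all arrays gave 0.11 ± 0.20 (adjusted p = 0.68). The call of Col23a1 was lost without replicate 1 (adjusted p = 0.054), replicate 2 (0.071) or replicate 3 (0.082), and also after scaling to the 75th percentile (M 0.42, adjusted p = 0.11) and quantile normalization (M 0.34, adjusted p = 0.15).

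Col17a1, a hemidesmosome collagen, fell in the non-polysomal fraction from 5.07, 4.85 and 5.00 to 4.36, 4.35 and 4.51, while its polysomal change was 0.065 ± 0.11. M was 0.63 ± 0.16 (adjusted p = 0.013). The call was lost without replicate 1 (M 0.42, adjusted p = 0.12) or replicate 3 (M 0.70, adjusted p = 0.092). It was lost as well after scaling to the 75th percentile (M 0.21, adjusted p = 0.35) and after quantile normalization (M 0.29, adjusted p = 0.31). Col4a4 rose in the polysomal fraction to 10.54, 10.65 and 10.58, a 2.32-fold rise, and in the non-polysomal fraction 1.31-fold. M was 0.82 ± 0.14 (adjusted p = 0.0013), and the call was lost without replicate 2 (0.77, adjusted p = 0.051), after scaling to the 75th percentile (0.40, adjusted p = 0.13) and after quantile normalization (0.44, adjusted p = 0.094). Col7a1 read 9.04, 9.15 and 8.98 against 9.53, 9.46 and 9.58 in the non-polysomal fraction, with a polysomal change of 0.025 ± 0.087. M was -0.44 ± 0.12 (adjusted p = 0.019), and the call was lost without replicate 1, 2 or 3 (adjusted p 0.093, 0.075 and 0.15). With a line through the spike-ins the M of Col7a1 was 0.022.

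For the fibrillar and type VI main chains, M was not called in the spike-in scaling. It was -0.21 ± 0.097 for Col1a1 (95% interval -0.43 to 0.01), 0.13 ± 0.11 for Col1a2, 0.26 ± 0.13 for Col3a1, -0.24 ± 0.13 for Col5a1 and -0.20 ± 0.14 for Col5a2. For Col6a1 and Col6a2 it was 0.10 ± 0.10 and 0.20 ± 0.11. All 7 values lay below the median M of all probes, by 0.23 (Col3a1) to 0.73 (Col5a1). After quantile normalization all 7 were below 0 and called, from -0.25 (Col1a2, adjusted p = 0.025) to -1.16 (Col1a1, adjusted p = 2.3e-06). After scaling to the 75th percentile all 7 were below 0, and Col1a1 (-0.64), Col5a1 (-0.67), Col5a2 (-0.62) and Col6a1 (-0.32) were called. With a line through the spike-ins 4 of the 7 were above 0, of which Col6a1 (0.28) and Col6a2 (0.47) were called, and Col1a1 was called at -0.29.

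By structural class, the leading probes of the 11 fibrillar genes had a median p0 - np0 of 2.40 (8 higher, 1 lower) and a median M of 0.094 (1 higher, 0 lower). The shares over all probes were 37.1% higher and 14.9% lower in p0 - np0, and 32.1% and 3.98% in M. The 1 called by M was Col11a2 (0.51 ± 0.16, adjusted p = 0.033), close to the median M of 0.49 over all probes. The 6 type IV genes were spread more widely, with 3 higher and 2 lower in p0 - np0 and 1 higher and 2 lower in M. Of 8 genes of the fibril-associated collagens with interrupted helices, 3 (37.5%) were higher and 1 lower in p0 - np0, near the shares of all probes. Of these genes, Col16a1 was called by M (0.46 ± 0.12, adjusted p = 0.017), with a value below the 0.49 median of all probes. Of the 4 transmembrane genes, 3 were higher in p0 - np0 and 3 in M, among them Col13a1, which was never well above background. The class counts in p0 - np0 and in M share the dependence on the scaling given above for all 70 probes.

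In the non-polysomal fraction, where the scaling moved the median of all probes least, 27 collagen probes rose and 5 fell from 0 h to 6 h, against 20.5% and 19.7% of all probes. The median change was 0.17. Of the fibrillar chains, Col5a1 rose 2.33-fold (from 12.27, 12.43 and 12.29 to 13.61, 13.47 and 13.56), Col5a2 1.60-fold, Col5a3 1.54-fold and Col1a1 1.51-fold, all called. Col1a2, at 15.77, 15.71 and 15.71 after 6 h, differed by -0.028 ± 0.075 (adjusted p = 0.83), and its groups overlapped. Col27a1, a fibrillar chain of cartilage, rose 2.50-fold. Col20a1, which attaches to fibrils, rose 2.58-fold, from 5.91, 6.04 and 5.93 to 7.42, 7.28 and 7.29. Col8a1 fell 1.52-fold, from 9.86, 9.99 and 9.94 to 9.45, 9.32 and 9.22, and its second probe fell by 0.48.

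In the polysomal fraction, 35 collagen probes rose and 9 fell, against 50.6% and 11.7% of all probes, and the collagen median of 0.55 was close to the 0.54 of all probes. The split was 20 and 14 after scaling to the 75th percentile, 16 and 21 after quantile normalization, 53 and 1 with a line through the spike-ins, 52 and 6 with the authors' log2 values and 56 and 4 after normexp. Without replicate 2 or 3, 4 and 5 probes fell. Among the 20 genes that the naming rule covers, the largest rises were those of Col4a1 (1.89 ± 0.085), Col27a1 (1.85 ± 0.14), Col18a1 (1.59 ± 0.079), Col4a2 (1.47 ± 0.082), Col22a1 (1.37 ± 0.29), Col4a4 (1.22 ± 0.099) and Col20a1 (1.09 ± 0.087). These 7 were above 0 in every scaling, as was Col23a1 with 0.92 ± 0.15.

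The main fibrillar and type VI chains changed less in the polysomal fraction, and their sign depended on the scaling. Col1a1 read 17.17, 17.07 and 17.18 at 6 h, 0.38 ± 0.069 above 0 h in the spike-in scaling, but -0.11 after scaling to the 75th percentile and -0.94 after quantile normalization. Col1a2 differed by 0.10 ± 0.075 (adjusted p = 0.25), and by -0.38, -0.56 and -0.084 with the 75th percentile, quantile normalization and the line. Col5a2 was at 0.48 ± 0.098, against -0.00356 and -0.43 in the first 2 of these settings. For Col3a1 (0.66 ± 0.092), Col5a1 (0.98 ± 0.089), Col6a1 (0.87 ± 0.073) and Col6a2 (0.66 ± 0.079), only quantile normalization turned the sign. Col8a1 was the only leading probe called lower at 6 h, from 12.86, 13.16 and 12.96 to 12.50, 12.37 and 12.48, and it fell under every scaling. The difference was -0.54 ± 0.096 (adjusted p = 0.00077), and that of its second probe was -0.62 ± 0.11.

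**Figure D3:**
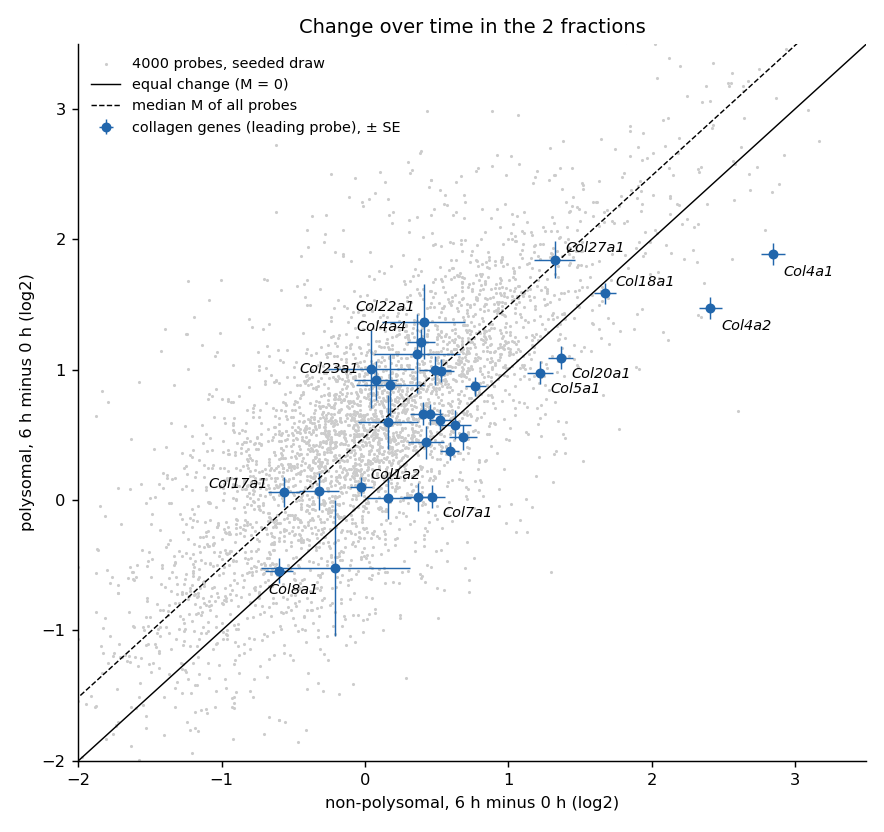
Change from 0 h to 6 h in log2 signal in the non-polysomal (horizontal) and polysomal (vertical) fraction for the leading probe of 31 collagen genes (blue, bars ± SE), over 4000 probes drawn at random from those well above background on all 12 arrays (grey). Col4a1 and Col4a2 lie farthest below the solid line of equal change, Col8a1 lies at the lower left (a fall in both fractions under every scaling), and most other collagens lie below the dashed line of the median M (0.49).

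Different probes of a gene did not always give the same value. Of the 42 genes, 24 had several probes. Both probes of Col4a1, Col4a2, Col8a1 and Col27a1 moved together in either fraction. In contrast, the polysomal signal of the dimmest Col1a1 probe fell by 0.29 (adjusted p = 0.012), that of the dimmer Col3a1 probe by 0.27 (adjusted p = 0.028) and that of the dimmer Col5a1 probe by 0.43 (adjusted p = 0.00047), while the leading probes of these genes rose in the spike-in scaling. Their M was -0.54, -0.41 and -0.63, all called, so that, with the second Col18a1 probe, 4 of the 9 probes with a lowered M belonged to genes whose leading probe was not called. The fall is also relative to a median polysomal change of 0.54.

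The largest disagreement was in Col2a1, the chain of cartilage fibrils. Its leading probe resembled the type I chains, with a p0 - np0 of 2.67 ± 0.08, changes of 0.52 and 0.62 over time in the non-polysomal and polysomal fractions, and an M of 0.094 ± 0.11. Its other probe, which was also well above background on all arrays, gave -3.97 ± 0.44, -1.89 ± 0.44, 1.36 ± 0.44 and 3.25 ± 0.63, the highest M among the collagens. Of 3 chondrocyte markers, Sox9 and Acan passed the detection limit and Matn1 did not. The summed chondrocyte marker signal (log2) ranged over 10.08 to 10.22 on np0, 11.48 to 11.68 on p0, 10.09 to 10.22 on np6 and 11.46 to 11.57 on p6 arrays. Nearly all of this sum came from Sox9, with means of 10.11 (np0), 11.6 (p0), 10.1 (np6) and 11.49 (p6). Acan was dim, with means of 4.59, 5.02, 4.71 and 5.31 in the same order. Which probe reads the Col2a1 transcript was not tested. For Col6a4 the leading probe had an M of 0.44 ± 0.29 and the other one of 1.21 ± 0.11, with polysomal changes of opposite sign (0.60 and -0.47).

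**Figure D4:**
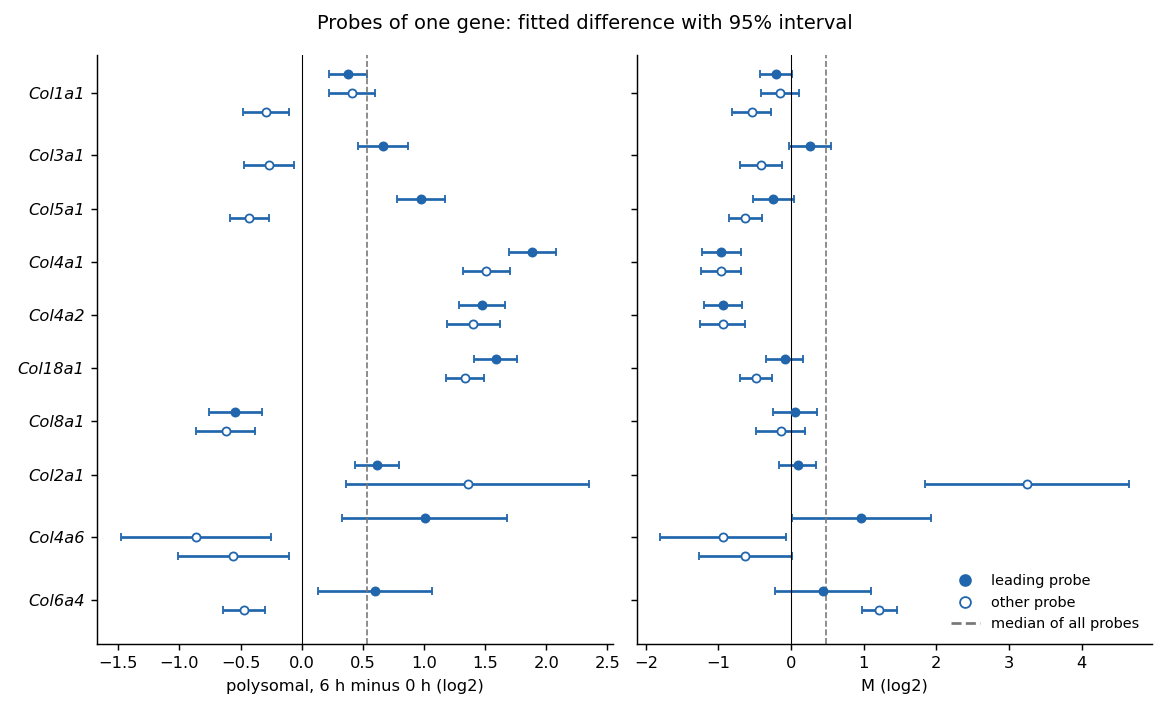
Fitted polysomal change from 0 h to 6 h (left, log2) and M (right, log2) with 95% intervals for each probe of 10 collagen genes with several probes, leading probe filled and other probes open. The probes of Col4a1 and Col4a2 overlap in M near -0.95, while those of Col2a1, Col4a6 and Col6a4 lie apart and those of Col1a1, Col3a1 and Col5a1 lie on both sides of 0 in the left panel, where the sign depends on the scaling.

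Among the dim members, only bounds could be given for some groups. Col8a2, the partner chain of Col8a1, was not well above background on any 0 h array or any 6 h non-polysomal array, and it was so on 2 of 3 polysomal arrays at 6 h. In the spike-in scaling, its polysomal signal was at least 2.08-fold higher at 6 h than at 0 h. It was at least 2.07-fold higher than in the non-polysomal fraction at 6 h. The adjusted p of 0.00021 for the change over time tests the fitted difference and not the bound. Such a bound sets the mean of all 3 bright arrays against the lowest signal that counts as above background on the dim arrays. All bounds given here hold for the spike-in scaling only, and no alternative was run for them. Col28a1 was at least 2.09-fold higher in the polysomal than in the non-polysomal fraction at 6 h. Col11a1, a fibrillar chain, was at least 5.52-fold higher in the polysomal fraction at 0 h by its dimmer probe, in the direction of its leading probe (2.28 ± 0.11). No probe of Col10a1, Col13a1, Col14a1, Col15a1, Col19a1, Col24a1, Col6a6 or Col9a1 was well above background on any array. Col13a1 was called with an M of 1.28 ± 0.36, from signals below that limit in all 4 groups.

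The mRNAs of the proteins that modify, fold, export and crosslink collagen were compared as lists, by the leading probe of each gene. These lists were read in the spike-in scaling only, no alternative was run for them, and M depends on the scaling. Most listed genes were well above background on all arrays of 1 or more groups (20 of 21 for modification and folding). The shares over all probes include dim probes as well, so the 2 are not matched for brightness. Of 21 genes for modification and folding, 20 were higher in the polysomal fraction at 0 h (median 2.11), against 23 of the 42 leading collagen probes (median 1.23) and 37.1% of all probes. By M, 12 of them were called higher and 0 lower, against 32.1% and 3.98% of all probes. The median M was 0.46, against 0.17 for the 42 leading collagen probes and 0.49 for all probes. The highest were Plod3, a lysyl hydroxylase (2.06 ± 0.11), and Ppib, a prolyl isomerase (1.51 ± 0.14). The lowest were Hspa5, the chaperone BiP (-0.24 ± 0.20, adjusted p = 0.34), and P4ha1, a prolyl hydroxylase chain (-0.21 ± 0.14, adjusted p = 0.24). Of 14 genes for translocation, export and mRNA binding, 8 (57.1%) were called higher and 1 lower by M, with a median of 0.59, against 32.1% and 3.98% of all probes. M is also raised where the non-polysomal signal falls, so a call by M does not show a polysomal rise. Larp6, alone of the 8, fell in the polysomal fraction (p6 - p0 -1.63), and it fell more in the non-polysomal fraction (np6 - np0 -2.63). The 1 lower gene was Mia3 (-0.56 ± 0.14), the TANGO1 receptor that loads collagen into carriers, and the highest were Sec61a1 (1.31 ± 0.11), a translocon channel subunit, and Sar1a (1.28 ± 0.12), the COPII coat GTPase.

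Of 11 genes for maturation and crosslinking, 7 (63.6%) were called higher and 1 lower by M, with a median of 0.87, beside the 32.1% and 3.98% of all probes. The highest were Tgm2, a transglutaminase (1.45 ± 0.18), and Adamts2, which removes the amino-terminal propeptide (1.41 ± 0.13), and the lowest were Loxl3, a lysyl oxidase (-0.66 ± 0.13, called), and Bmp1, which removes the carboxy-terminal propeptide (-0.11 ± 0.12). Of 6 receptor genes, Itga11 was called higher (0.62 ± 0.13) and Ddr2 lower (-0.64 ± 0.12), with a median of 0.088. Itga2 had the highest M (1.39 ± 0.72, adjusted p = 0.15) but was well above background on no array, and Mrc2 was at -0.034 ± 0.14. Of 32 other matrix genes, 12 (37.5%) were called higher and 5 (15.6%) lower by M, with a median of 0.12. The share higher was near the 32.1% of all probes. The lowest were Postn, the fibril-associated periostin (-0.97 ± 0.11), and Thbs2 (-0.70 ± 0.12), and the highest were Bgn, a small proteoglycan gene (2.30 ± 0.11), and Fbn2 (2.01 ± 0.73, adjusted p = 0.056), which was well above background on no array. Fmod, the next small proteoglycan gene, was at 1.32 ± 0.27. The differences between the lists were not tested.

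**Figure D5:**
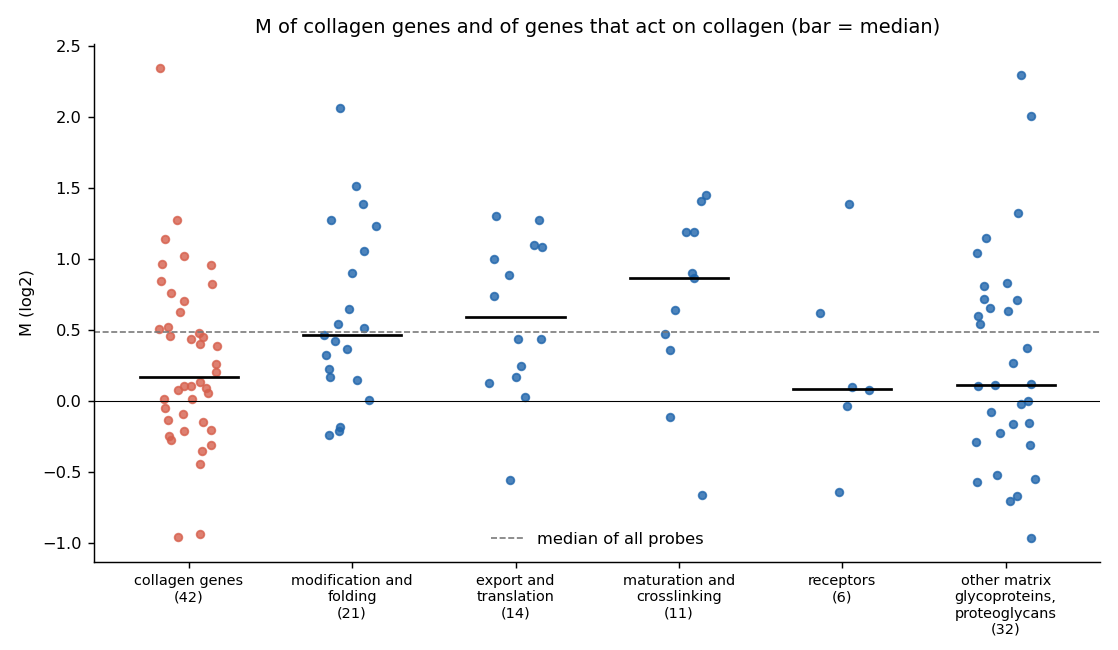
M (log2, 1 point per gene, leading probe) for the 42 collagen genes (red) and for the 5 lists of genes that act on or accompany collagen (blue), with bars at the list medians and a dashed line at the median of all probes (0.49). In the spike-in scaling the collagen median (0.17) and those of receptors (0.088) and other matrix genes (0.12) lie below the dashed line, and those of export (0.59) and maturation (0.87) above it.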

How the data were processed

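Spot intensities of 12 Agilent one-color arrays (Feature Extraction 10.7.1.1) were deposited by the authors, background-subtracted but not normalized between arrays. A second deposited table holds the authors' log2 values per probe, made from median pixel intensities. Here the background-subtracted intensity was taken to log2, outlier spots were left out, spots of a probe were averaged, and each array was scaled by the mean of 10 spike-in transcripts with 32 spots each. limma 3.58.1 in R 4.3.3 (lmFit, eBayes) was fitted to the 4 groups over all probes, with Benjamini-Hochberg adjustment and a limit of 0.05, and no filter on dim probes. Steps were tested on simulated data. The median intensity per array was 18.7 to 26.1, and 55.7% to 60.8% of probes were well above background. The number of arrays limits the precision.

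Symbols came from RefSeq accessions, whose assembly differs from the array's design build. The leading probe of a gene has the highest mean over the arrays. Values were to be given for 13 main chains and for the 3 highest and 3 lowest called detected genes in M and in each time contrast, 20 genes in all, and for lists the 2 highest and 2 lowest by M. The members and lists were chosen with earlier results of these data known. Alternatives were other scalings (75th percentile, quantile, a spike-in line), the authors' log2 values, a filter on dim probes, outlier spots kept, the replicate number as a block, gene means, and leaving out arrays. Normexp (offset 50) was run on median pixels after the data were seen, because no mean signal is among the columns.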

Additional observations from a re-analysis of the deposited data

Results flagged for a closer look

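By limma's test of M, the change over time differed between the fractions for 6 of the 20 collagen genes that the naming rule covers. Over all 42 collagen genes, M of the leading probe was called higher for 7 and lower for 3. Over all probes, 32.1% were called higher and 3.98% lower by M, so these counts do not set the collagens apart by how many were called. Of the 6 genes, Col23a1, Col4a4, Col17a1 and Col7a1 were chosen because M was called, so that their calls restate the choice. M was -0.96 for Col4a1 and -0.94 for Col4a2, which rose more in the non-polysomal than in the polysomal fraction, and -0.44 for Col7a1. It was 0.85 for Col23a1, 0.82 for Col4a4 and 0.63 for Col17a1. All 3 slides gave the same sign for each of these genes. Since Col23a1, Col4a4, Col17a1 and Col7a1 were chosen by M on the same arrays, this is no separate support for them. The calls of Col23a1 and Col7a1 were lost without replicate 1, 2 or 3. That of Col17a1 was lost without replicate 1 or 3, and that of Col4a4 without replicate 2. After scaling to the 75th percentile and after quantile normalization, M was no longer called for Col23a1 (0.42 and 0.34), Col4a4 (0.40 and 0.44) and Col17a1 (0.21 and 0.29). For Col7a1 it was 0.022 with a line through the spike-ins.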

How the results depend on the processing

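M of Col4a1 and Col4a2 kept its sign and call under all 24 alternatives. Counts that include the 6 h polysomal arrays moved with the scaling, as did the number of probes lower in p0 - np0. After scaling to the 75th percentile, 3 probes were called higher and 24 lower by M, 20 and 14 in p6 - p0, 27 and 21 in p6 - np6, and 17 lower in p0 - np0. After quantile normalization the counts were 4 and 29 by M, 16 and 21 in p6 - p0, and 12 lower in p6 - np6. With a spike-in line they were 38 and 5 by M, 53 and 1 in p6 - p0, and 2 lower in p6 - np6. With the authors' log2 values 33 were higher by M, and with normexp, added after the data were seen, 41 by M and 56 and 4 in p6 - p0. Leaving out arrays gave 2 to 12 higher and 5 to 10 lower by M, 4 to 10 lower in p6 - p0 and 5 to 8 lower in np6 - np0, with 8 without the 0 h non-polysomal replicate 3. The cause was not tested.

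Values changed sign as follows. With the 75th percentile, M was -0.29 for Col1a2, -0.16 for Col3a1, -0.32 for Col6a1, -0.22 for Col6a2 and -0.37 for Col8a1. There, p6 - p0 was -0.42 for Col17a1, -0.11 for Col1a1, -0.38 for Col1a2, -0.00356 for Col5a2 and -0.46 for Col7a1, p0 - np0 was -0.093 for Col22a1, and p6 - np6 was -1.10 for Col27a1, -0.48 for Col4a1 and -0.28 for Col7a1. With quantile normalization, M was -0.25 for Col1a2, -0.025 for Col27a1, -0.69 for Col3a1, -0.68 for Col6a1, -0.59 for Col6a2 and -0.75 for Col8a1. There, p6 - p0 was -0.23 for Col17a1, -0.94 for Col1a1, -0.56 for Col1a2, -0.65 for Col3a1, -0.17 for Col5a1, -0.43 for Col5a2, -0.18 for Col5a3, -0.10 for Col6a1, -0.25 for Col6a2 and -0.57 for Col7a1, and p6 - np6 was -0.92 for Col27a1, -0.28 for Col4a1 and -0.33 for Col7a1. With the line, M was 0.15 for Col18a1, -0.055 for Col1a2, 0.54 for Col20a1, 0.074 for Col5a2, 0.30 for Col5a3 and 0.022 for Col7a1, p6 - p0 was -0.084 for Col1a2, and np6 - np0 was -0.079 for Col23a1. With the authors' log2 values, M was 0.022 for Col18a1 and p6 - p0 was -0.028 for Col7a1. With normexp, M was 0.026 for Col18a1 and -0.035 for Col8a1, and p6 - p0 was -0.031 for Col7a1. With gene means, M was -0.078 for Col3a1, 0.13 for Col5a3 and -0.043 for Col8a1, and np6 - np0 was -0.078 for Col5a3. Leaving out arrays moved M from -0.14 to 0.024 for Col5a3 and from -0.035 to 0.14 for Col8a1, p6 - p0 from -0.074 to 0.17 for Col17a1 and from -0.042 to 0.12 for Col7a1, and np6 - np0 from -0.077 to 0.048 for Col1a2 and from -0.084 to 0.26 for Col23a1.

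The replicate number is also the slide, and was tried as a block. The deviations of 18 same-numbered pairs correlated from -0.097 to 0.424, with 4 above 0.1, and 9 of 12 arrays were on average closest to their own number. With the replicate block, 9 probes were higher and 8 lower by M, 37 and 8 in p6 - p0, 26 and 5 in np6 - np0, 38 and 6 in p0 - np0, and 46 and 5 in p6 - np6. Normexp on mean signals was not run as planned. For 8 genes no probe was well above background on any array, and their values have no order.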
